A study of Homo sapiens with 6 samples.

Results

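The genes described here are MYC and 9 regulators of the G1 phase of the cell cycle, CCND1, CCND3, CDK4, CDK6, CCNE1, CCNE2, CDKN1A, CDKN1B and E2F1. They were found by symbol in a table of 58735 genes, and all 10 were present once and passed the filter on low values, a mean of at least 1 FPKM over all libraries. FPKM is the number of fragments per kilobase of gene, scaled to the size of the library. The study measured RNA by sequencing in 6 libraries labelled Hep3B, an established human line from a liver carcinoma. In 3 of them a short hairpin RNA (shRNA) targets HYOU1, a chaperone of the endoplasmic reticulum, and the other 3 carry a control hairpin. Where 3 values are given for a group, they stand in the order of replicates 1, 2 and 3. No other agent or time point is given in the labels, and they do not say whether the replicates were separate cultures, so the p-values rest on differences among libraries that may be only technical. In this bulk RNA, fewer cells of one state and less RNA per cell cannot be told apart.

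Cells commit to division in G1. Growth signals raise D-type cyclins, which bind the kinases CDK4 and CDK6 and start to phosphorylate the retinoblastoma protein. E-type cyclins with CDK2 complete that step and free E2F factors, which switch on genes of DNA replication. CDKN1A (p21) and CDKN1B (p27) inhibit the CDK2 complexes, and the transcription factor MYC, with its partner MAX, promotes growth and entry into S phase by binding the E-box, a short DNA element. In hepatocellular carcinoma MYC and CCND1 are known as recurrently amplified genes.

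Promoter sequences show where MYC and E2F elements lie in the members, from 250 bases before to 50 bases after a transcription start given by RefSeq. RefSeq sequences on GRCh38.p14 were at hand for 7 of the 10 members, with MYC, CCND1 and CCNE2 not matched. These starts lie 19 to 3703 bases inside the gene spans of the deposited table, 3703 for CDK4 and 19 for E2F1. The E-box CACGTG, which reads the same on both strands, occurred 3 times for CDK4 and once for CDK6. It was present in 7.26% of 35116 promoters of the same length. An E2F element, searched on both strands as TTTGGCGC, TTTCCCGC, TTTGCCGC or TTTCGCGC, occurred 2 times for E2F1 and was present in 3.31% of these promoters. These searched elements do not overlap one another. Both promoters with repeated matches are shown 5′ to 3′ on the strand of the gene, that of CDK4 at chr12:57752261-57752560 (minus strand) and that of E2F1 at chr20:33686336-33686635 (minus strand), with the matches in capitals. A match describes these letters only.
CDK4: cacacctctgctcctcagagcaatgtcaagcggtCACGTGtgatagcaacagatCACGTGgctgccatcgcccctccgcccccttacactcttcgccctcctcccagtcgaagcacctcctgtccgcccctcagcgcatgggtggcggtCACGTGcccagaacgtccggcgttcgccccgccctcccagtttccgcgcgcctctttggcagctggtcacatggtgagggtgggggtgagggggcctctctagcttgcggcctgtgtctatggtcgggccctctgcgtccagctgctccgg
E2F1: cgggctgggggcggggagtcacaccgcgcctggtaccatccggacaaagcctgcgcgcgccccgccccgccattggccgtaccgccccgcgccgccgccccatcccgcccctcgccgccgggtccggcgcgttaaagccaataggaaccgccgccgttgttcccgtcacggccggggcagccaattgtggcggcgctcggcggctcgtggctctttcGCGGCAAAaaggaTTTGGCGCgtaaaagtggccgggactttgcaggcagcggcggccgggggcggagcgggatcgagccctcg
In the CDK4 promoter the matches start at positions -216, -196 and -101 relative to its RefSeq start at 57752310, and in the E2F1 promoter at -33 and -20.

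The libraries held 16893091 to 18233240 fragments. Mitochondrial genes took 7.59, 5.17 and 4.96% of them with the control hairpin and 3.39, 3.84 and 3.52% with the HYOU1 hairpin. These shares did not overlap between the groups, and their part in the results below was not tested. HYOU1 measured 37.6, 58.2 and 59.5 FPKM with the control hairpin and between 2.32 and 2.37 in the HYOU1 shRNA libraries, a log2 fold change of -4.38 (SE 0.20; limma, adjusted p = 0.00119). Hepatocyte markers were nearly absent, although the label is a liver cancer cell. None of 15 hepatocyte genes reached a mean of 1 FPKM, their summed level was between 3.04 and 3.24 FPKM in control and between 1.05 and 1.42 in HYOU1 shRNA libraries, 5 of them, including ALB (albumin), were listed at 0 everywhere, and AFP was at 0.0343 FPKM or less. Of 8 biliary genes 6 reached a mean of 1 FPKM, with sums between 83.3 and 98.8 FPKM, and of 10 fibroblast genes 4 did, with sums between 10.8 and 12.8 (1 higher, COL1A1, and 1 lower, DCN). No immune or endothelial gene of 18 reached it. The part of these markers in the results was not tested. Control replicate 1 was set off from the remaining libraries along GC content. In the 10% of tested genes with the lowest GC it had a median log2 difference of 0.76 from the mean of control replicates 2 and 3, and in the 10% with the highest GC the difference was -1.0. Results are therefore also given without this library and after a correction for GC content.

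MYC and CCND1 rose in the libraries with the HYOU1 shRNA, and the other 8 members did not pass the test. The numbers were 2 higher and 0 lower of 10, where 6.6% of 12448 tested genes were called higher and 5.66% lower (limma, adjusted p under 0.05). At an unadjusted p under 0.05 there were also 2 higher and 0 lower, where 17% and 14.6% of all genes were, and voom, a count-based form of limma, gave 2 and 0, where it called 7.91% of all genes higher and 6.6% lower. The median log2 fold change of the members was 0.16, against 0.04 over all tested genes. It was -0.03 without control replicate 1 (0.02 over all genes) and 0.02 after the GC correction (0.0036 over all genes). Without control replicate 1, 3 were called higher and 1 lower, where 24.6% and 19.7% of all genes were (44.3% in either direction). After the GC correction 3 were higher and 1 lower as well, with 20.4% and 20.2% of all genes (40.6% in either direction). The added calls were the same in both, a higher CDKN1A and a lower CCNE1. The groups did not overlap for 4 members, with 3 higher and 1 lower, where 44.4% of all tested genes did not overlap. Leaving out control replicate 1, 5 members and 65.8% of all genes did not overlap. Both shares among the members are near or under those of all genes.

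**Figure D1:**
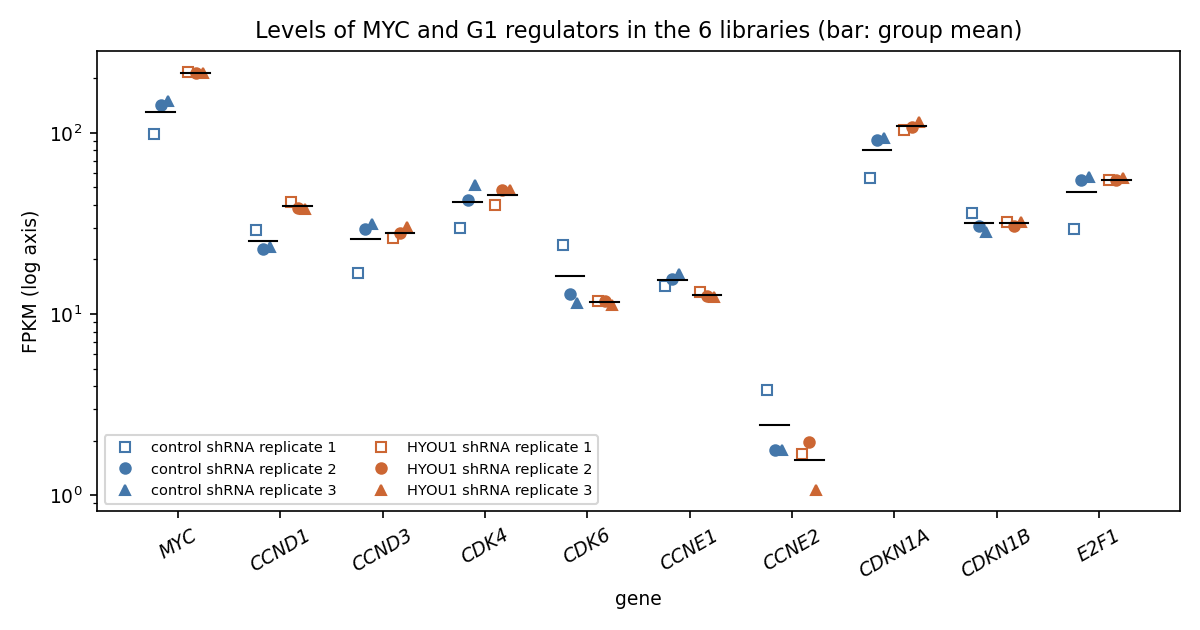
FPKM of the 10 genes (log axis) in each library, with control shRNA libraries in blue, HYOU1 shRNA libraries in orange, replicate 1 as open squares and group means as bars. MYC and CCND1 lie higher in all 3 HYOU1 shRNA libraries than in all 3 control libraries, while control replicate 1 lies outside the range of the other 2 controls for all 10 genes.

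MYC, on chromosome 8 (ENSG00000136997, 127735434 to 127741434 on GRCh38, plus strand), had the highest level of the 10 in both groups. It measured 98.4, 142 and 150 FPKM with the control hairpin and 218, 213 and 215 with the HYOU1 hairpin. All 3 HYOU1 shRNA libraries lay above all controls, and they differed little from one another. The group means were 130 ± 28.0 and 215 ± 2.47 FPKM (SD, n = 3 each), a 1.65-fold higher level, and its log2 fold change was 0.75 (SE 0.17, 95% confidence interval 0.33 to 1.16; limma, adjusted p = 0.0399). It was 0.56 without control replicate 1 (adjusted p = 0.000193) and 0.64 after the GC correction (adjusted p = 0.00112), the fold being smaller and the spread narrower. MYC did not pass without control replicate 2 (adjusted p = 0.0841), without HYOU1 shRNA replicate 1, 2 or 3 (adjusted p = 0.148, 0.148 and 0.154), with a filter of 0.1 FPKM or none (0.0528 and 0.0854), or without the variance trend (0.0510).

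Of the D-type cyclins CCND1 rose and CCND3 did not pass, and the difference between them is given with the ratios. CCND1, cyclin D1, on chromosome 11 (ENSG00000110092, 69641087 to 69654474, plus strand), measured 29.2, 22.8 and 23.6 FPKM with the control hairpin. With the HYOU1 hairpin it measured 41.7, 38.3 and 37.9 FPKM. The groups did not overlap, and control replicate 1 was the highest control here, unlike for MYC. Mean levels were 25.2 ± 3.51 with the control and 39.3 ± 2.07 FPKM with the HYOU1 hairpin (SD, n = 3 each), so that the log2 fold change was 0.65 (SE 0.13, 95% confidence interval 0.33 to 0.97; limma, adjusted p = 0.0301). The change was 0.76 without control replicate 1 (adjusted p = 9.08e-05) and 0.63 after the GC correction (adjusted p = 0.00822). CCND1 did not pass without control replicate 2 or 3 (adjusted p = 0.0953 and 0.0708), without HYOU1 shRNA replicate 1, 2 or 3 (0.140, 0.130 and 0.129), with no filter (0.0662) or after quantile normalization (0.0757). Its exons overlap LTO1 on the other strand over 10.3% of their length, and LTO1 was at a mean of 1.88 FPKM.

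CCND3, cyclin D3, on chromosome 6 (ENSG00000112576, 41934933 to 42050357, minus strand), measured 16.9, 29.6 and 31.3 FPKM with the control hairpin. With the HYOU1 hairpin it measured 26.4, 27.9 and 30.1 FPKM, within the range of the controls. Its log2 fold change of 0.17 did not pass the test (95% confidence interval -0.42 to 0.75; limma, adjusted p = 0.669). It turned to -0.12 without control replicate 1, with an interval of -0.29 to 0.05. CCND2, the third D-type cyclin, was between 0.125 and 0.266 FPKM and was not tested.

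CDK4, on chromosome 12 (ENSG00000135446, 57747727 to 57756013, minus strand), whose promoter holds the 3 E-boxes shown above, measured 29.96, 42.7 and 51.5 FPKM with the control hairpin. With the HYOU1 hairpin it measured 39.8, 48.4 and 48.1 FPKM. The groups overlapped, and the log2 fold change was 0.16 (95% confidence interval -0.35 to 0.68; limma, adjusted p = 0.629). It was -0.05 without control replicate 1, with an interval of -0.32 to 0.22. TSPAN31 lies on the other strand and shares 43.2% of the exonic bases of CDK4, at a mean of 4.01 FPKM, so part of the reads may belong to it.

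CDK6, the second kinase of the D cyclins, on chromosome 7 (ENSG00000105810, 92604921 to 92836594, minus strand), differed mainly in a single library. It was at 24.1 FPKM in control replicate 1, at 12.9 and 11.5 in control replicates 2 and 3, and at 11.7, 11.9 and 11.2 in HYOU1 shRNA replicates 1, 2 and 3. A log2 fold change of -0.40 did not pass (95% confidence interval -1.06 to 0.27; limma, adjusted p = 0.366). Leaving out control replicate 1 gave -0.07, with an interval of -0.25 to 0.11.

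CCNE1, cyclin E1, on chromosome 19 (ENSG00000105173, 29811898 to 29824308, plus strand), was the member whose HYOU1 shRNA libraries all lay below the controls. It measured 14.3, 15.5 and 16.7 FPKM with the control hairpin and 13.3, 12.6 and 12.5 with the HYOU1 hairpin. Mean levels were 15.5 ± 1.17 FPKM with the control and 12.8 ± 0.431 with the HYOU1 hairpin (SD, n = 3 each). Its log2 fold change of -0.27 (SE 0.11) did not pass (95% confidence interval -0.54 to 0.0033; limma, adjusted p = 0.162). It passed at -0.33 without control replicate 1 (adjusted p = 0.00622) and at -0.35 after the GC correction (adjusted p = 0.00703).

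CCNE2, cyclin E2, on chromosome 8 (ENSG00000175305, 94879770 to 94896678, minus strand), had the lowest level of the 10. It measured 3.80, 1.78 and 1.77 FPKM with the control hairpin and 1.68, 1.96 and 1.07 with the HYOU1 hairpin. These levels rest on 82 to 285 fragments, against 5038 to 11735 for MYC. The log2 fold change was -0.56 (95% confidence interval -1.43 to 0.30; limma, adjusted p = 0.326), and -0.21 without control replicate 1. INTS8 on the other strand shares 37.0% of its exonic bases and was at a mean of 8.72 FPKM, more than CCNE2 itself, so the level of CCNE2 is uncertain.

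Of the inhibitors, CDKN1A lay above all controls in every HYOU1 shRNA library, while the groups overlapped for CDKN1B through control replicate 1. CDKN1A, on chromosome 6 (ENSG00000124762, 36676460 to 36687339, plus strand), measured 56.7, 90.8 and 94.0 FPKM with the control hairpin. With the HYOU1 hairpin it measured 103, 108 and 115 FPKM. The groups did not overlap, although the lowest HYOU1 shRNA library was close to the highest control. Mean levels were 80.5 ± 20.7 FPKM with the control and 109 ± 5.70 with the HYOU1 hairpin (SD, n = 3 each), and the log2 fold change of 0.47 (SE 0.21) did not pass (95% confidence interval -0.03 to 0.96; limma, adjusted p = 0.179). Without control replicate 1 the difference was smaller, at 0.23, and passed (adjusted p = 0.0190), as it did at 0.24 after the GC correction (adjusted p = 0.0121).

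CDKN1B, on chromosome 12 (ENSG00000111276, 12715058 to 12722371, plus strand), measured 36.2, 30.6 and 28.2 FPKM with the control hairpin. With the HYOU1 hairpin it measured 32.1, 30.8 and 32.4 FPKM. The log2 fold change was 0.01 (95% confidence interval -0.29 to 0.32; limma, adjusted p = 0.959), the smallest of the 10. It was 0.11 without control replicate 1, with an interval of -0.04 to 0.26. Without that library the groups did not overlap, and all HYOU1 shRNA libraries lay above the controls.

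E2F1, on chromosome 20 (ENSG00000101412, 33675683 to 33686404, minus strand), is a factor released from the retinoblastoma protein, and its promoter above holds 2 E2F elements. It measured 29.5, 54.7 and 56.9 FPKM with the control hairpin and 54.6, 55.2 and 56.1 with the HYOU1 hairpin. Apart from control replicate 1, the 5 libraries lay between 54.6 and 56.9. The log2 fold change was 0.29 (95% confidence interval -0.32 to 0.91; limma, adjusted p = 0.468) with all libraries. It was -0.01 without control replicate 1, with an interval of -0.14 to 0.12.

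**Figure D2:**
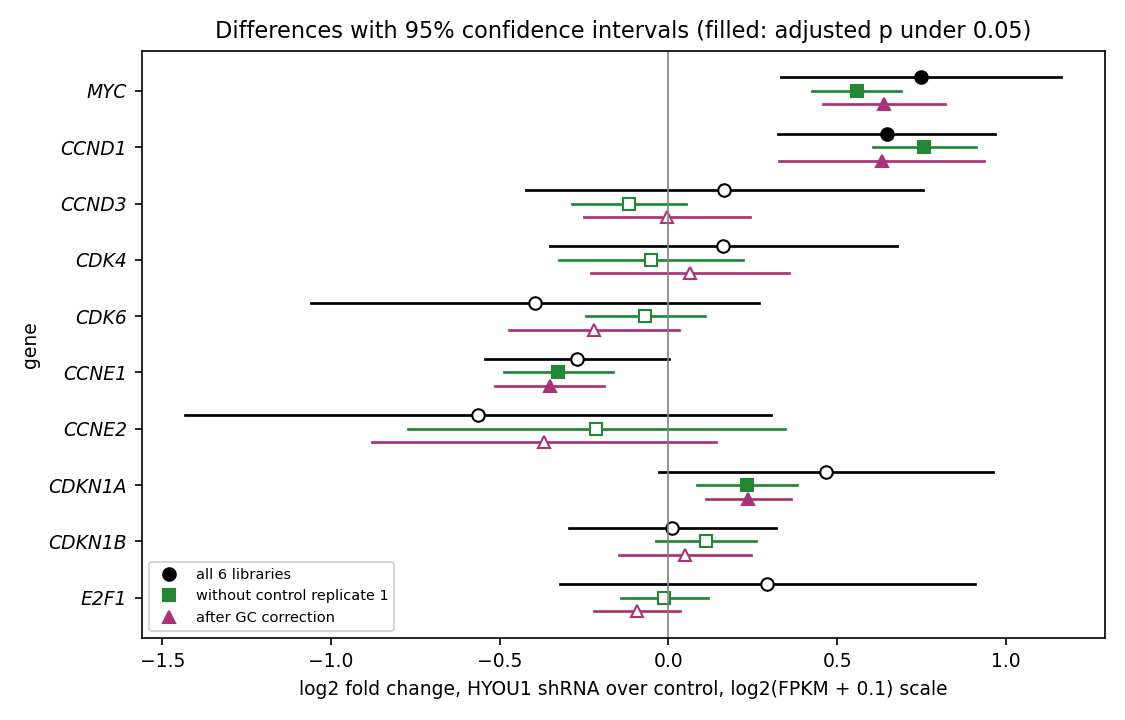
Log2 fold change of each gene (HYOU1 shRNA over control, log2(FPKM + 0.1) scale) with its 95% confidence interval, for all 6 libraries (black), without control replicate 1 (green) and after the GC correction (purple), filled where the adjusted p is under 0.05. MYC and CCND1 are filled in all 3 fits, CCNE1 and CDKN1A in the latter 2, and the differences of CCND3, CDK6 and E2F1 lie nearer to 0 without control replicate 1.

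The deviation of control replicate 1 followed the GC content of the members. CCNE2 and CDK6, with the lowest GC content of 36.9% and 39.5%, lay 1.05 and 0.98 above the mean of control replicates 2 and 3 on the log2 scale. E2F1, with the highest at 62.5%, differed by -0.92, CDKN1A (58.1%) by -0.70, CCND3 (56.2%) by -0.85, MYC (53.9%) by -0.57 and CDK4 (53.6%) by -0.65. CCNE1 (52.9%) differed by -0.17, CCND1 (50.3%) by 0.33 and CDKN1B (47.7%) by 0.30. The median size of this deviation was 0.67 as deposited and 0.27 after the GC correction. For CCND1 it was 0.44 after the correction, larger than before it. The part of GC content in the differences between the groups was not tested apart from that correction.

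**Figure D3:**
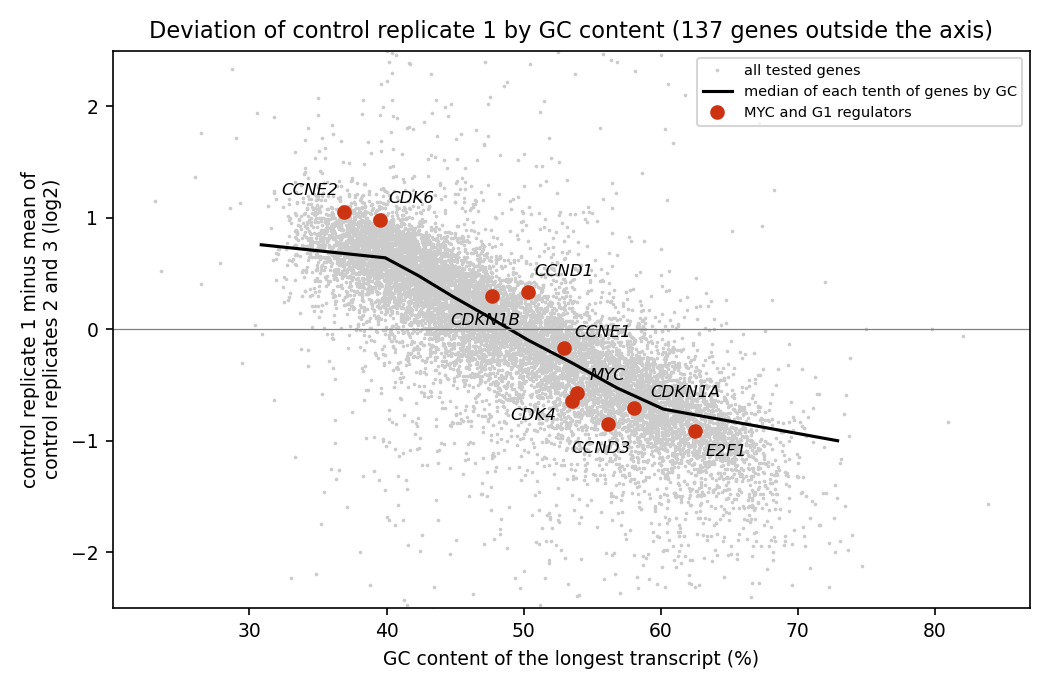
Deviation of control replicate 1 from the mean of control replicates 2 and 3 (log2) against the GC content of the longest transcript (%), for all tested genes (grey), the median of each of 10 GC classes of equal size drawn at the middle of its GC range (black line) and the 10 members (red). The members run from 1.05 for CCNE2 at 36.9% GC to -0.92 for E2F1 at 62.5%.

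FPKM is scaled to gene length, and the levels of the members are set side by side on that scale. The scaling does not remove shifts along GC content, or reads from genes on the other strand as for CDK4 and CCNE2. The order is therefore a description of the deposited values only. In control libraries the order of mean FPKM was MYC, CDKN1A, E2F1, CDK4, CDKN1B, CCND3, CCND1, CDK6, CCNE1 and CCNE2. The ranges of neighbours overlapped except between MYC and CDKN1A and between CCNE1 and CCNE2. In HYOU1 shRNA libraries CCND1 stood at rank 5, above CDKN1B and CCND3, and CCNE1 stood above CDK6. There the ranges of neighbours were separate except for CDK4 and CCND1.

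Ratios within a library compare related members. CCND1 over CCND3 was 1.73 in control replicate 1, 0.771 and 0.753 in control replicates 2 and 3, and 1.58, 1.37 and 1.26 in HYOU1 shRNA replicates 1, 2 and 3. CCND1 thus had a higher FPKM than CCND3 in all 3 HYOU1 shRNA libraries and in control replicate 1. The mean log2 ratio differed by 0.48 (two-sided exact permutation test, p = 0.40), and by 0.88 without control replicate 1. CDK4 over CDK6 was 1.24, 3.30 and 4.45 in control and 3.37, 4.05 and 4.26 in HYOU1 shRNA replicates 1, 2 and 3. CDKN1A over CDKN1B was 1.57, 2.96 and 3.32, and 3.21, 3.50 and 3.53, in the same order. CCNE1 over CCNE2 ranged from 3.70 to 8.94 in control and from 6.20 to 10.8 in HYOU1 shRNA libraries. The groups overlapped for all 4 ratios, with exact permutation p of 0.40, 0.60, 0.20 and 0.70 in the order given here and an adjusted p of 0.70 for each over the 4 pairs, where 3 against 3 cannot go below 0.10.

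**Figure D4:**
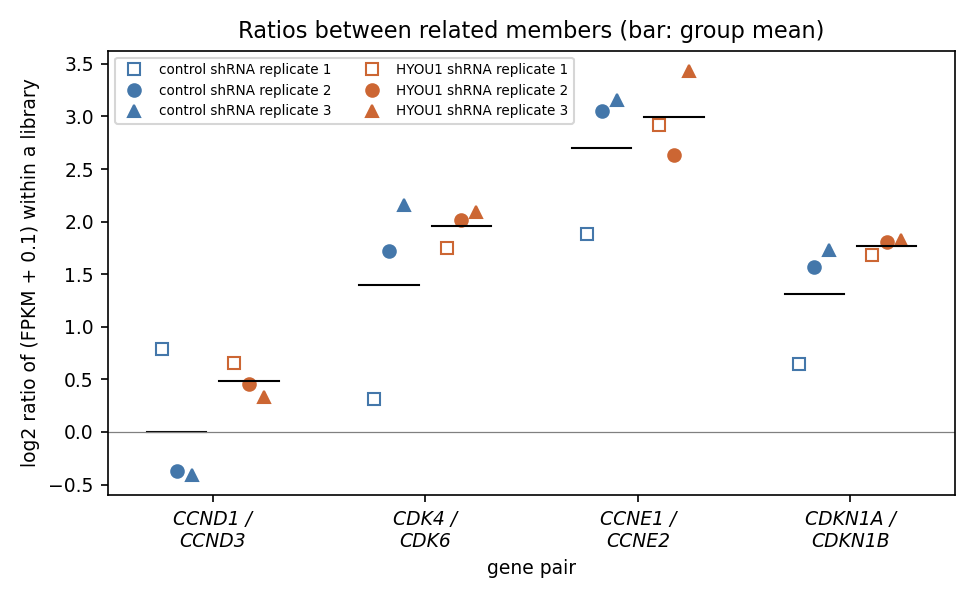
Log2 ratio of FPKM + 0.1 within each library for 4 pairs of related genes, with control libraries in blue, HYOU1 shRNA libraries in orange and group means as bars. Control replicate 1 (open blue square) lies at one end of the controls for every pair, and for CCND1 over CCND3 it lies above 0 with the HYOU1 shRNA libraries while control replicates 2 and 3 lie below 0.

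The tested genes with the pattern most like that of MYC were KLHL21, MYADM, PPP1R26, RARG and SULF2. Likeness was the root mean square difference of log2 values over the 6 libraries, each gene centred on its own mean. It was between 0.027 and 0.038 for these 5, and its median over all tested genes was 0.49. The 5 were picked for the smallest values, so their place under the median follows from that choice. KLHL21, for instance, measured 7.39, 10.5 and 11.3 FPKM with the control hairpin and 15.7, 16.2 and 15.9 with the HYOU1 hairpin. Among the members CDKN1A was nearest to MYC, at 0.16, and CCNE2 farthest, at 0.89. Among all tested genes, ordered from the nearest, they stood at ranks 603 and 11482. All these profiles share the same 6 libraries and the deviation of control replicate 1.

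Around MYC, the network of its partner MAX and of the MXD and MNT repressors that compete for MAX did not pass. Of 12 tested genes 0 rose and 0 fell (limma), with 3 higher and 1 lower at an unadjusted p under 0.05 and 1 higher and 0 lower with voom. Here and in the lists below, the share of all genes at an unadjusted p under 0.05 is 17% higher and 14.6% lower. At an adjusted p under 0.05 it is 6.6% and 5.66% with limma, and 7.91% and 6.6% with voom. Without control replicate 1 limma calls 24.6% and 19.7%, and after the GC correction 20.4% and 20.2%. MYCL, a relative of MYC named after its values were seen, was under the filter at 0.431 ± 0.104 FPKM in control and 1.52 ± 0.302 in HYOU1 shRNA libraries (SD, n = 3 each). It rose where the filter was 0.1 FPKM or absent (limma, adjusted p = 0.0231 and 0.0403). The genes of the list with the highest level were MXI1, an antagonist of MYC, with a log2 fold change of 0.59 (adjusted p = 0.0651), and MLX, a related partner protein, with 0.46 (adjusted p = 0.0579). The median of the list was 0.21 and that of all tested genes 0.04. Leaving out control replicate 1 gave a median of -0.09, with 3 called higher and 2 lower.

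Known MYC target genes, in a list of ribosome and nucleotide production that also holds TERT, rose in 4 of 28 tested. Of all tested genes 6.6% rose. In the list 0 fell and 24 did not pass. Among the 4 that rose, TERT reached the filter only through its level in the HYOU1 shRNA libraries. Without it 3 of 27 rose and the median was 0.13. At an unadjusted p under 0.05, 9 were higher and 3 lower, and voom called 4 higher and 0 lower. TERT, the catalytic subunit of telomerase, measured 0.255, 0.418 and 0.569 FPKM with the control hairpin and 1.92, 2.06 and 2.32 with the HYOU1 hairpin. The groups did not overlap, at 20 to 47 fragments in control libraries. Its log2 fold change was 2.14 (limma, adjusted p = 0.0124), but 1.14 with a pseudocount of 1, and it also passed with a filter of 0.1 FPKM or none (adjusted p = 0.0139 and 0.0259). GNL3 (nucleostemin), FBL (fibrillarin, which methylates ribosomal RNA) and DKC1 (dyskerin, which modifies it) rose by 0.62, 0.52 and 0.43 (limma, adjusted p = 0.0310, 0.0423 and 0.0389). These changes are on the log2 scale, as are all changes below. None of these genes passed with no filter. FBL and DKC1 did not pass with a filter of 0.1 FPKM or without the variance trend, nor GNL3 and DKC1 after quantile normalization. The median of all 28 was 0.19, and control replicate 1 deviated from the other controls by a median of -0.14 in this list. Leaving out that library gave 11 higher and 5 lower calls, where 24.6% and 19.7% of all genes were called. The GC correction gave 12 and 6, where 20.4% and 20.2% of all genes were called.

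Among other cyclins and kinases of G1 and S phase, CDK7, the kinase that activates other CDKs, rose by 0.75 (limma, adjusted p = 0.0156). It was the 1 gene called of 7, with 0 falling, and 4 were higher and 0 lower at an unadjusted p under 0.05 (voom, 2 and 0). The median of the list was 0.45, the highest of the lists described here. CDK2, the kinase of cyclin E, chosen after its values were seen, measured 28.99, 33.9 and 34.4 FPKM with the control hairpin and 44.9, 44.6 and 42.9 with the HYOU1 hairpin. Its groups did not overlap, and its log2 fold change of 0.45 did not pass (limma, adjusted p = 0.0516). Leaving out control replicate 1 gave 5 higher and 0 lower calls, as did the GC correction. Of all genes these fits called 24.6% and 20.4% higher, and 19.7% and 20.2% lower.

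Other CDK inhibitors rose in 2 of 6, with 0 falling (2 higher and 0 lower also at an unadjusted p under 0.05 and with voom). Without control replicate 1, and also after the GC correction, 2 were called higher and 1 lower. Of all genes these fits called 24.6% and 20.4% higher, and 19.7% and 20.2% lower. CDKN1C, p57, of the same family as CDKN1A and CDKN1B, measured 22.2, 31.1 and 32.2 FPKM with the control hairpin and 63.6, 63.4 and 67.9 with the HYOU1 hairpin. All HYOU1 shRNA libraries lay well above the controls, with a log2 fold change of 1.20 (SE 0.16; limma, adjusted p = 0.0111). Within its family this was larger than the values of 0.47 for CDKN1A and 0.01 for CDKN1B, a contrast that was not tested. CDKN2D, p19, an inhibitor of CDK4 and CDK6, measured 1.79, 3.44 and 3.71 FPKM with the control hairpin and 7.28, 7.86 and 6.998 with the HYOU1 hairpin. Its log2 fold change was 1.34 (SE 0.28; limma, adjusted p = 0.0301). Control replicate 1 differed from the other controls by -0.51 for CDKN1C and by -0.96 for CDKN2D. After the GC correction both still rose, by 0.77 and 1.00.

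In the RB family and the E2F, DP and DREAM genes, 1 of 17 rose and 0 fell. At an unadjusted p under 0.05, 1 was higher and 3 lower, and voom called 1 higher and 1 lower. Leaving out control replicate 1 gave 4 higher and 3 lower calls, and the GC correction 3 and 4. E2F7, an E2F factor that represses, rose by 0.67 (limma, adjusted p = 0.0494). It did not pass with a pseudocount of 0.01 (limma, adjusted p = 0.0501) or with a filter of 0.1 FPKM or none (0.0654 and 0.105). It also did not pass after quantile normalization (limma, adjusted p = 0.0665) or without the variance trend (0.0550). Nor did it pass without control replicate 2 or 3 (0.131 and 0.101) or without HYOU1 shRNA replicate 1, 2 or 3 (0.187, 0.171 and 0.162). RB1, the retinoblastoma gene itself, chosen after its values were seen, measured 25.3, 15.4 and 12.7 FPKM with the control hairpin and 8.78, 9.38 and 8.51 with the HYOU1 hairpin. The groups did not overlap, and the log2 fold change was -0.93 (limma, adjusted p = 0.0602). It passed at -0.65 without control replicate 1, at -0.74 after the GC correction and at -0.94 with voom. These fits called 19.7%, 20.2% and 6.6% of all genes lower. No gene of the list was called lower with other pseudocounts, filters or scalings, or without the variance trend. The same held without control replicate 2 and without HYOU1 shRNA replicate 1, 2 or 3.

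E2F target genes of the G1/S transition moved in both directions. Of 25 tested, 1 rose, 3 fell and 21 did not pass, and the median was 0.00. Among those that fell, GINS2, of the replicative helicase, fell by 0.80 and RRM2, of ribonucleotide reductase, by 0.59, while MCM6, a subunit of the same helicase, rose by 0.52 (limma, adjusted p between 0.0370 and 0.0471). At an unadjusted p under 0.05, 5 of the list were higher and 6 lower, and voom called 3 higher and 3 lower. Leaving out control replicate 1 gave 7 higher and 8 lower calls, where 24.6% and 19.7% of all genes were called.

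Of 14 genes of ubiquitin ligases and deubiquitinases that act on G1 regulators, 1 rose and 0 fell. At an unadjusted p under 0.05, 3 were higher and 2 lower, and voom called 1 higher and 0 lower. Leaving out control replicate 1 gave 3 higher and 2 lower calls, as did the GC correction. FZR1, an activator of the anaphase-promoting complex in G1, rose by 1.08 (limma, adjusted p = 0.0441) and by 0.64 after the GC correction, with control replicate 1 at -0.88 from the other controls.

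Markers of proliferating cells in S, G2 and M phase did not pass in any of 12 tested, with 3 higher and 1 lower at an unadjusted p under 0.05 and 0 higher and 1 lower with voom. The highest levels were those of CCNB1, cyclin B1, and TPX2, a spindle factor, with log2 fold changes of 0.27 and 0.32 (limma, adjusted p = 0.229 and 0.155). Without control replicate 1, 8 rose and 3 fell, where 24.6% and 19.7% of all genes did.

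**Figure D5:**
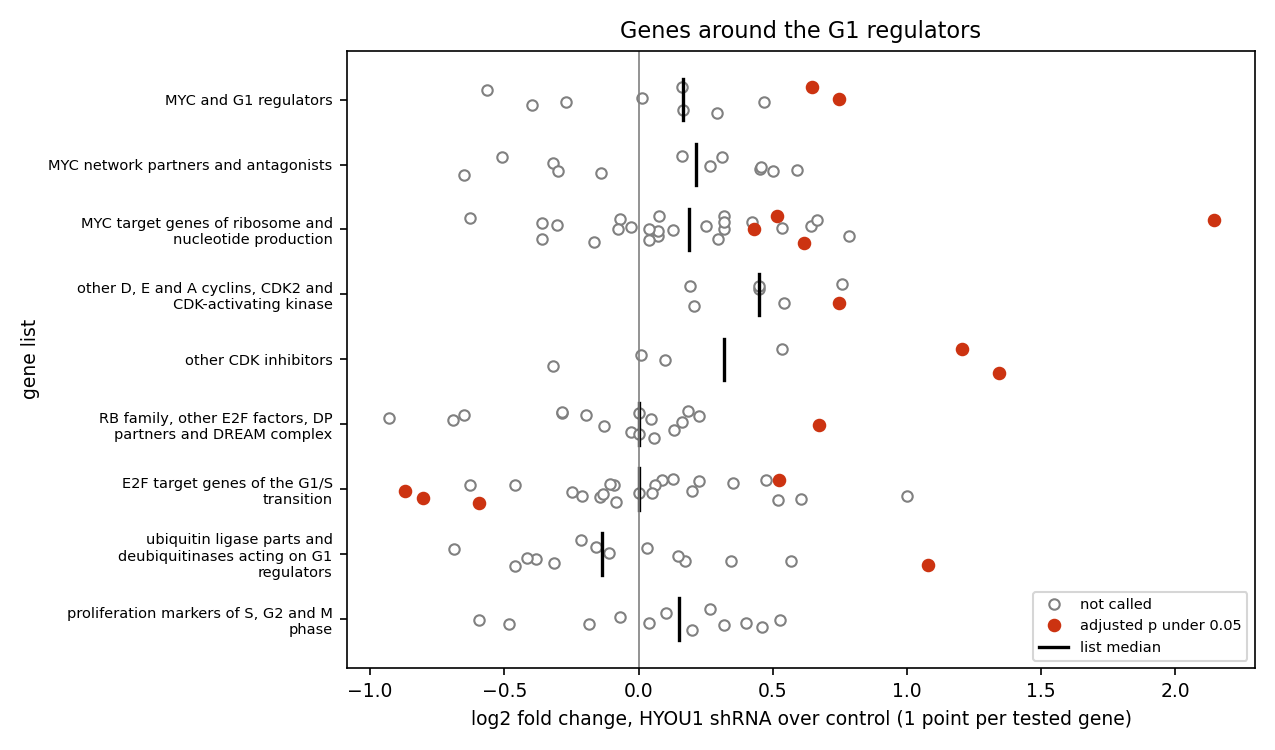
Log2 fold change (HYOU1 shRNA over control) of every tested gene of the G1 regulators and of 8 surrounding lists, 1 point per gene, red where the adjusted p is under 0.05, with list medians as bars. TERT, at 2.14, is the red point farthest to the right, and the 3 red points below 0 all lie in the row of E2F target genes.

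In all 9 lists examined, of which 8 are described here, 17 genes were called. All 17 were still called without control replicate 1, after the GC correction and with voom. These fits called 44.3%, 40.6% and 14.5% of all tested genes in either direction. Of the 17, 9 were called with a filter of 0.1 FPKM and 5 with none. After quantile normalization 12 were called, and without the variance trend also 12. Without HYOU1 shRNA replicate 1, 2 or 3 none of the 17 were called (limma, adjusted p between 0.0750 and 0.189). Of all 12448 tested genes these fits called 54, 38 and 22 higher and 72, 47 and 27 lower. With all libraries these numbers were 822 and 704. Without control replicate 2 or 3, 2 and 10 of the 17 were called. Those fits called 206 and 594 of all genes higher and 151 and 428 lower. The median deviation of control replicate 1 from the other controls ranged over the 9 lists from -0.60 for the CDK inhibitors to 0.49 for the RB and E2F genes, and its part in these counts was not tested.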

How the data were processed

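RNA from 6 libraries was captured with oligo(dT) beads and primed with random hexamers, per the labels' protocols, and no step that marks strand is named there. The authors deposited FPKM values per gene and library. For the aligner, counter and build, the sources used here name none. All 58735 genes matched by identifier and position GENCODE 29 on GRCh38. FPKM times gene length came in whole multiples of 1 step per library (tolerance 0.01 fragments), which gave back the fragments. In a gene 1 kb long, 3 fragments come to at most 0.176 FPKM, a limit of counting alone.

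Values were transformed to log2(FPKM + 0.1), a scale that understates changes of weakly expressed genes, and 12448 genes averaging 1 FPKM or more over the libraries were fitted with limma 3.58.1 in R 4.3.3 (variance trend, robust priors). Calls were made where the Benjamini-Hochberg adjusted p was under 0.05 over all tested genes. voom used the recovered fragments. The GC correction removed from each library a lowess trend (span 0.3) against GC content (taken from the longest transcript; 6 tested genes had none), and with it any real difference that follows GC content. The named genes are all members, HYOU1, up to 4 called genes per list with the largest change (or the 2 with the highest mean) and the 5 most like MYC. Some genes and 1 list that this rule covers are not reported here. Members and lists were chosen with earlier results of these data known. Alternatives were other pseudocounts, filters, scalings, a replicate block, no variance trend and leaving out each library.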

Additional observations from a re-analysis of the deposited data

How the results depend on the processing

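HYOU1 passed in all 18 alternatives. The count of members called higher, 2 with all libraries, was 1 with a filter of 0.1 FPKM, after quantile normalization and without the variance trend, and 0 with no filter. It ranged from 0 to 3 when 1 library was left out, and the count called lower from 0 to 1, which was also 1 after the GC correction with or without the block. Over all genes, 822 higher and 704 lower calls became 525 and 413 with a filter of 5 FPKM, 433 and 337 with none, and 2535 and 2513 after the GC correction (2282 and 2222 with the block). They ranged from 22 to 3062 and from 27 to 2456 when 1 library was left out. In the 9 lists together, 14 higher and 3 lower became 9 and 1 with a filter of 0.1 FPKM, 6 and 0 with none, 9 higher without the variance trend, 5 lower with voom, and 46 and 32 after the GC correction (40 and 26 with the block). They ranged from 0 to 51 and from 0 to 33 when 1 library was left out. The cause of these shifts was not tested.

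Directions turned for genes that were not called. CCND3 was at -0.0052 and E2F1 at -0.092 after the GC correction, with or without the block, and CDKN1B at -0.075 after quantile normalization. When 1 library was left out, values ranged from -0.12 to 0.33 for CCND3, from -0.052 to 0.34 for CDK4, from -0.068 to 0.11 for CDKN1B and from -0.012 to 0.46 for E2F1. The difference in the log2 ratio of CCNE1 over CCNE2 ranged from -0.11 to 0.52.

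Same-numbered libraries of the groups correlated in their deviations at 0.12, -0.09 and 0.17 across genes for replicates 1, 2 and 3, so the numbers were not taken to pair them. With the replicate number as a block, members called higher numbered 1, all genes 525 higher and 415 lower, and the lists 8 higher. MYC then had an adjusted p of 0.0555, CCND1 of 0.0492 and E2F7 of 0.0587 (limma). GNL3, FBL and DKC1 did not pass with the block, and 10 of the 17 called genes of the lists did. Of the 10 members, CCNE2 is the one most limited by depth.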
